A study of Mus musculus with 3 samples.

Results

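The 44 genes described here are macrophage and neutrophil genes of the mouse, chosen as a named list and found by gene name or synonym among the 27681 genes of the array design. All 44 were on the design, with 68 probes of 1 spot each. Macrophages take up debris and microbes through scavenger, lectin and Fc receptors, depend on colony-stimulating factor signals, and release interleukin-1 and tumour necrosis factor when toll-like receptors are engaged. Neutrophils carry antimicrobial proteins in granules that are made while the cells mature in bone marrow. Liver has resident macrophages called Kupffer cells, lung has alveolar macrophages in its airspaces, and the stomach wall has macrophages among its glands and muscle.

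Gene expression was compared between tumours and other tissue of mice with a transgene for AID (activation-induced cytidine deaminase, the enzyme that mutates antibody genes in B cells), written AID Tg in the labels. The liver array paired a liver tumour with nontumour liver, and the stomach array a gastric tumour with nontumour gastric tissue, all of AID Tg origin. The sample titles do not say whether the 2 tissues of a pair came from the same animal. The lung array paired a lung tumour of an AID Tg mouse with normal lung of a Wt (wild-type) mouse, so tumour, transgene and animal cannot be told apart there. The promoter of the transgene, the strain and the age of the mice are not given in the sources used here. Each organ had a single array with 2 dyes. There were neither replicates nor dye swaps, so differences are given as sizes without a replicate check or a p-value, and the number of arrays limits their precision. Without a dye swap, a dye bias of a probe cannot be told apart from a difference between tissues, also where 2 organs agree. Scanner values were used for liver and stomach. For lung, the values are those of the spots in the authors' deposited table, which gives no error.

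The sources disagree on which dye is the tumour. The dye labels put each tumour in Cy3, whereas the deposited lists headed as up-regulated hold spots brighter in Cy5, which makes Cy5 the likely tumour channel by the list headings and the design text. Ratios below are log2(Cy5/Cy3), and Cy5-high or Cy3-high names the brighter channel. Under the list headings Cy5-high means higher in the tumour, and under the dye labels it means lower. A gene that lies on opposite sides in 2 organs does so under either reading, as long as the same dye marks the tumour on each array.

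On the scanned arrays 82.3% to 90.0% of gene spots were well above background, depending on the array and channel, and genes with more than 1 probe had a pooled SD between probes of 0.18 (liver) and 0.26 (stomach) on the log2 scale. Hepatocyte genes were well above background in both liver channels, with summed levels of 51700 (Cy3) and 45300 (Cy5). On the stomach array, 7 gastric gland genes summed to 267000 in Cy3 and 82600 in Cy5, and 5 intestinal epithelium genes to 8650 in Cy3 and 64500 in Cy5. In the lung lists of the authors' deposited table, 4 of 6 lung epithelium genes, 6 of 6 endothelial genes, 7 of 9 T cell genes and 5 of 8 B cell and plasma cell genes were Cy3-high and none of these was Cy5-high. Over the design, 12.4% of genes were Cy3-high and 6.84% Cy5-high in lung. The part that such differences in tissue make-up have in the values below was not tested. In whole tissue, fewer cells of a type and less RNA per cell cannot be told apart.

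The myeloid genes were close to even between the channels in liver, differed in a few members in stomach, and differed in many members in lung. In liver, 0 of 44 were at least 2-fold higher in either channel, beside 0.152% (Cy5-high) and 0.0703% (Cy3-high) of the 25611 genes measured. Their median log2 ratio was 0.06 beside 0.011 for all genes, with 31 of 44 members above 0 beside 52.9% of all genes. Within 0.2 of 0 lay 38 of the 44, beside 77.9% of all genes, so small ratios were general on the liver array. The stomach array had 2 Cy5-high members, Lyz2 and Tlr2, and 2 Cy3-high members, Gpnmb and Ltf, where 0.877% and 1.41% of the 25327 genes measured passed 2-fold. Its members had a median of 0.10 beside 0.001 for all genes, with 28 of 44 above 0 beside 50.2% of all genes and 26 of 44 within 0.2 of 0 beside 66.7%. In the stomach lists of the authors' deposited table, which reach down to 1.35-fold, 3 members were Cy5-high and 3 Cy3-high (6.82% each), beside 5.18% and 4.32% of the design's genes. For lung, the authors' deposited table listed 5 members as Cy5-high (11.4%) and 12 as Cy3-high (27.3%), beside 6.84% and 12.4% of the design's genes, and 27 members were in neither list. Of the 17 listed members, 12 had all of their spots listed. The lung lists start at 2-fold, and a gene missing from them may have been under 2-fold or may have been left out for another reason.

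**Figure D1:**
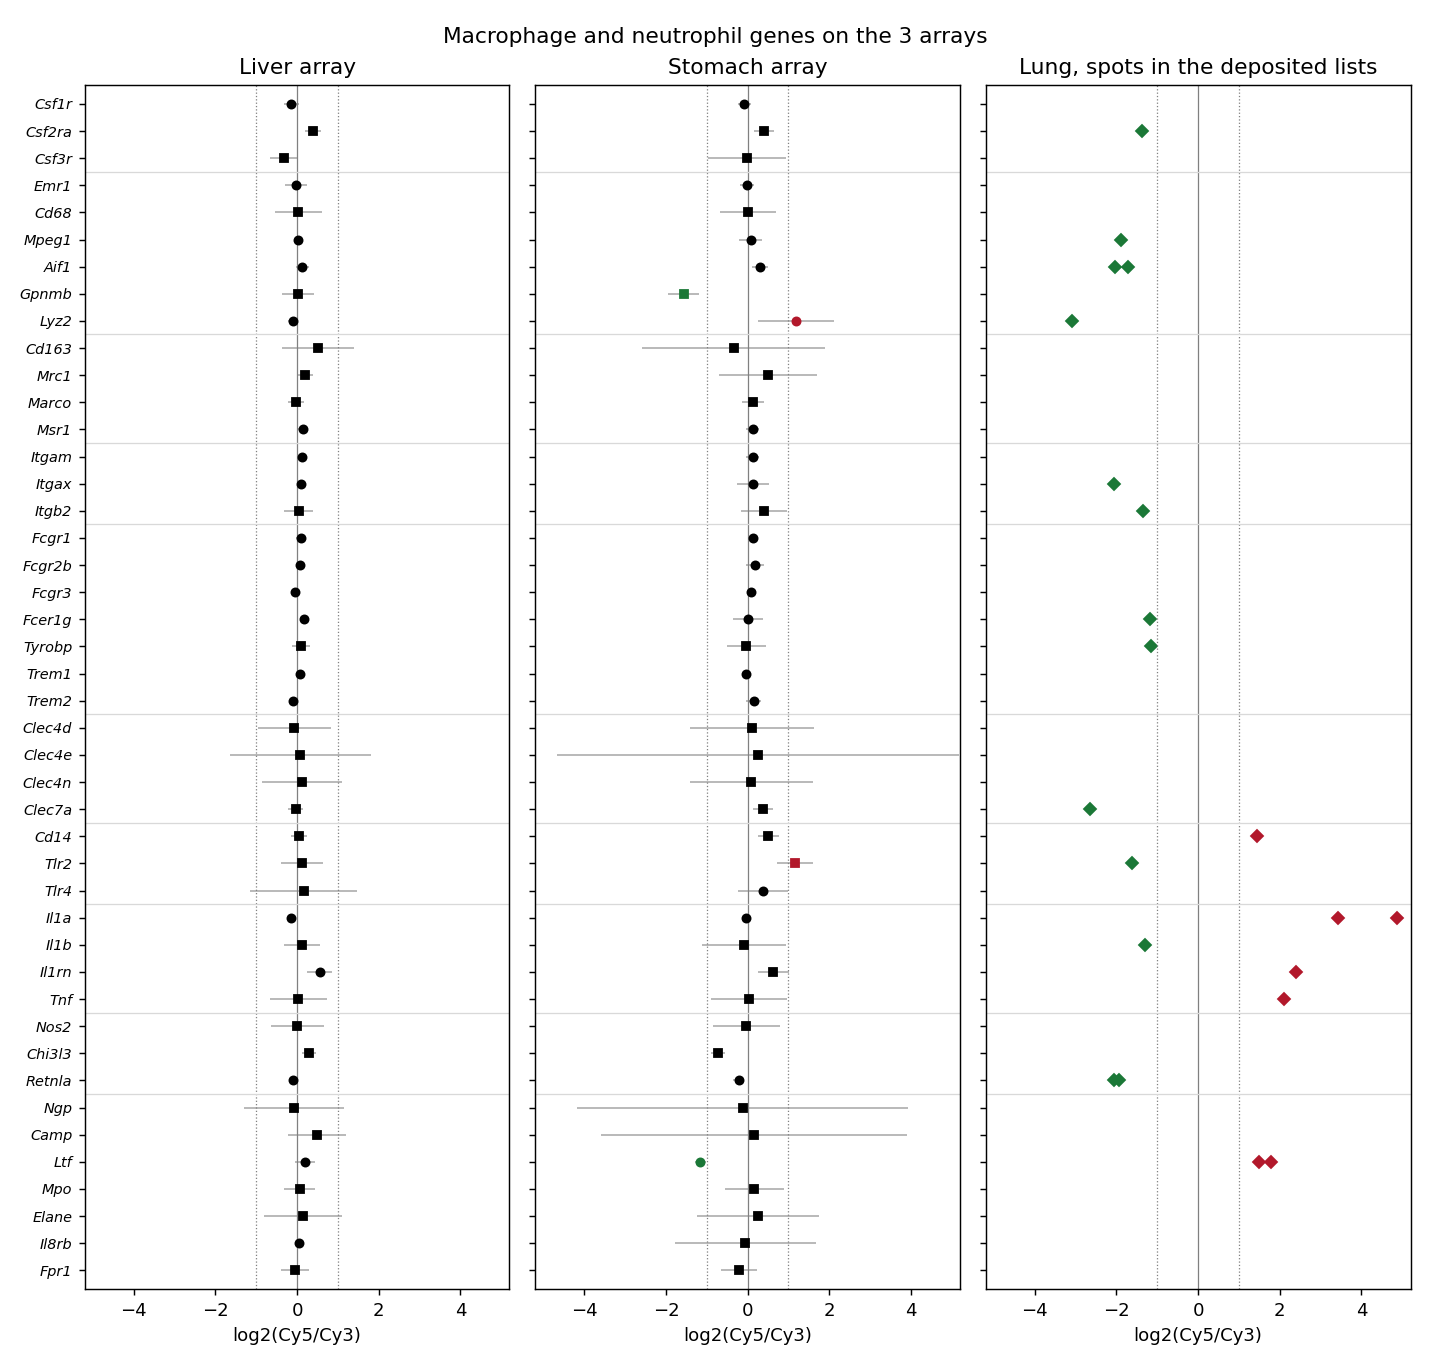
Log2(Cy5/Cy3) of the 44 genes in 10 role groups (rows) on the liver array, the stomach array and, for lung, at the spots in the authors' deposited lists. Circles are means over probes with the SD between probes, squares are single probes with the scanner's error, diamonds are single lung spots, and dotted lines mark 2-fold; red is at least 2-fold Cy5-high and green Cy3-high. Liver values hug 0, 4 stomach members pass 2-fold, and the lung points spread to both sides.

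The cytokines held the largest Cy5-high ratios of the list, all in lung. Il1a, the gene of interleukin-1 alpha, an alarm cytokine of myeloid and epithelial cells, had both of its spots in the lung list of the authors' deposited table. One had a signal of 553 in Cy3 and 16400 in Cy5 in the authors' deposited table (29.5-fold) and the other 756 and 8070 (10.7-fold), a mean log2 ratio of 4.15. Both probes of Il1a thus put Cy5 far above Cy3. Il1rn, which encodes the antagonist that blocks the interleukin-1 receptor, went from 1460 to 7700 on 1 of its 2 spots in the authors' deposited table (log2 ratio 2.40). Tnf, the tumour necrosis factor gene, went from 406 to 1750 there in the authors' deposited table (2.11). Il1b, the gene of interleukin-1 beta, stood on the other side, with 2990 in Cy3 and 1220 in Cy5 in the authors' deposited table (-1.30). The agonists Il1a and Il1b therefore lay on opposite sides in lung, and the antagonist lay on the side of Il1a.

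Il1rn leaned towards Cy5 in liver and stomach as well. In liver its brighter probe had levels of 343 in Cy3 and 585 in Cy5 (log2 ratio 0.77), and its other probe, not well above background in Cy3, 58.1 and 73.5 (0.34, scanner error 2.80). The mean of 0.55 (SD 0.31, 2 probes) was the highest of the members on that array, and the probe above background in both channels alone gave 0.77. The bright probe was also the 1 member spot in the liver lists of the authors' deposited table (1.8-fold, log2 ratio 0.85), where 1.75% of the design's genes were Cy5-high and 1.36% Cy3-high. In stomach the same probe had 152 and 235 (log2 ratio 0.63, scanner error 0.38), and it was not listed. Il1rn was the 1 cytokine of the 4 with a ratio over 0.5 in liver and stomach. Il1a was the lowest cytokine in liver (108 and 97.6, log2 ratio -0.14, SD 0.10), and Il1b the lowest in stomach (102 and 96.1, -0.09, scanner error 1.02). Tnf had 0.03 on both arrays, so neither Il1a nor Tnf approached in liver or stomach the ratio listed for lung.

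The letters upstream of Il1a, Il1rn and Tnf, the cytokine genes Cy5-high in lung, are shown. AP-1 and PU.1 are factors known to act on myeloid cytokine genes. The window of Il1b, the cytokine Cy3-high in lung, is not shown and held neither the AP-1 nor the PU.1-type letters searched. Capitals mark TGANTCA (AP-1) and GAGGAA (a PU.1-type core), searched on both strands in the 250 bases before the RefSeq gene start of GRCm38.p6. The windows are Il1a at chr2:129309973-129310222 (minus strand), Il1rn at chr2:24336610-24336859 (plus strand) and Tnf at chr17:35202008-35202257 (minus strand).
Il1a: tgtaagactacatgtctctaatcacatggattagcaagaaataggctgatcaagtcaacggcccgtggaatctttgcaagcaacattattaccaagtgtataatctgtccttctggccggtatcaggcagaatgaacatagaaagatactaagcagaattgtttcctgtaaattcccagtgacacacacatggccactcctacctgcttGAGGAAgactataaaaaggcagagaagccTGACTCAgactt
Il1rn: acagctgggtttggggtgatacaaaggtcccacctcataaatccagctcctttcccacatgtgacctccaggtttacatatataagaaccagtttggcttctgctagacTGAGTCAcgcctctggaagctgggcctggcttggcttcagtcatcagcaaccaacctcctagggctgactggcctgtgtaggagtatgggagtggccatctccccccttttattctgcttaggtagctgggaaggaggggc
Tnf: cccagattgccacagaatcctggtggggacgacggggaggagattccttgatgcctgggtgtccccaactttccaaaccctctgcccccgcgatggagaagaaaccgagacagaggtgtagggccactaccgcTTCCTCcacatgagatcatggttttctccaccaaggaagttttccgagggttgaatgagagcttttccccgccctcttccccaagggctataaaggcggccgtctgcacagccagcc
Il1a held GAGGAA at 41 to 36 and TGACTCA at 12 to 6 bases before the start. Il1rn held TGAGTCA at 141 to 135, and Tnf held GAGGAA on the opposite strand at 117 to 112. Over the 35 members with a window, TGANTCA was found in 5 (14.3%) and GAGGAA in 21 (60.0%), beside 6.85% and 23.1% of 27025 RefSeq windows of that length. A match of letters is a description and not a binding site.

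Of the 3 growth factor receptor genes, Csf2ra was the one listed in lung. Csf2ra, the alpha chain of the GM-CSF receptor on which alveolar macrophages depend, had levels of 420 and 551 in liver (log2 ratio 0.39, scanner error 0.19) and 254 and 335 in stomach (0.40, error 0.25). In both organs Cy5 was the brighter channel by about the same ratio, on the same probe and without a dye swap. In lung, the authors' deposited table had Csf2ra Cy3-high, with 32900 in Cy3 and 12600 in Cy5 (-1.38). Csf3r, the G-CSF receptor of neutrophils, was the lowest member in liver (223 and 178, log2 ratio -0.33, error 0.33) and stood at -0.01 in stomach. Csf1r, the receptor that keeps macrophages alive, had -0.14 in liver (258 and 234, SD 0.18 over 3 probes) and -0.08 in stomach (215 and 203, SD 0.15 over 3 probes). Csf1r and Csf3r were in neither lung list.

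The sensors of bacterial products split in lung and shared 1 side in stomach. Tlr2, the toll-like receptor for bacterial lipoproteins, had 122 in Cy3 and 271 in Cy5 in stomach, a log2 ratio of 1.15 (scanner error 0.44, 1 probe). Its spot was also Cy5-high in the stomach list of the authors' deposited table, at 480 and 1800 (3.75-fold). In lung the same spot was Cy3-high in the authors' deposited table, with 3460 in Cy3 and 1120 in Cy5 (-1.62). Tlr2 thus lay on opposite sides in stomach and lung, and it was near even in liver (136 and 148, 0.12, error 0.52).

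Cd14, which hands lipopolysaccharide to Tlr4, had 233 and 332 in stomach (log2 ratio 0.51, scanner error 0.26) and 436 and 452 in liver (0.05, error 0.19). In lung it was Cy5-high in the authors' deposited table, from 5670 to 15500 (1.45). Tlr4, the lipopolysaccharide receptor itself, had 2 probes that disagreed in stomach, a brighter one at 181 and 317 (0.81) and one not well above background in Cy3 at -0.06. The brighter Tlr4 probe was in the stomach list of the authors' deposited table (2.09-fold), and no Tlr4 spot was in a lung list. In liver Tlr4 had 85.1 and 94.9 (0.16, error 1.31). All 3 sensors were thus above 0 in stomach, while in lung Cd14 and Tlr2 were on opposite sides.

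The window of Tlr2 is shown because it was the 1 member of 35 with the letters searched for NF-kappaB (GGGA, any base, TT, any base, CC, on both strands), which 0.94% of all windows held. It lies at chr3:83841609-83841858 (minus strand), and the capitals mark the match at 172 to 163 bases before the start.
Tlr2: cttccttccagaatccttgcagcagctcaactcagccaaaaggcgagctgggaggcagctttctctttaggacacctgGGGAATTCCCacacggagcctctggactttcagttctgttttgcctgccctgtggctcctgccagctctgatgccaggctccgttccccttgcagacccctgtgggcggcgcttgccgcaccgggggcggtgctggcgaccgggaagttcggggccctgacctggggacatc

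The C-type lectin genes encode receptors for fungal and mycobacterial sugars and for damaged cells. Clec7a, known as dectin-1, the receptor for fungal beta-glucan, had the second largest Cy3-high ratio of the members in lung, with 16400 in Cy3 and 2610 in Cy5 in the authors' deposited table (-2.65). In stomach it leaned the other way, with 269 and 349 (log2 ratio 0.38, scanner error 0.25), the highest of the lectins, and in liver it was even (496 and 482, -0.04, error 0.19). Clec4e, Clec4d and Clec4n were in neither lung list. In stomach these 3 had ratios of 0.25, 0.11 and 0.09 (Clec4n, 80.7 and 85.7, the lowest), with scanner errors of 1.5 to 4.92, and Clec4e was not well above background in Cy3. In liver Clec4n was the highest lectin (92.7 and 101, 0.13, error 0.98) and Clec4d the lowest (103 and 97.7, -0.07, error 0.90). Their errors exceeded their ratios on both arrays, and Clec7a in stomach was the 1 lectin value that did exceed its error.

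The beta2 integrins are adhesion receptors of leukocytes built from an alpha chain and the common chain Itgb2. In lung 2 of 3 members were Cy3-high, beside 12.4% of the design's genes. Itgax, the CD11c chain of alveolar macrophages and dendritic cells, had 9520 in Cy3 and 2270 in Cy5 on 1 of its 2 spots in the authors' deposited table (-2.07). Itgb2 had 5560 and 2170 there in the authors' deposited table (-1.36). Itgam, the CD11b chain of neutrophils and recruited macrophages, was in neither list. In liver Itgam was the highest of the 3 (67.0 and 72.8, 0.12, SD 0.09, mean scanner error 3.34) and Itgb2 the lowest (180 and 185, 0.04, scanner error 0.36). In stomach Itgb2 was the highest (118 and 156, 0.40, error 0.57) and Itgam the lowest (65.8 and 71.8, 0.12, SD 0.15, mean scanner error 3.54). The Itgax probe listed in lung was the dimmer of its pair in liver (109 and 114) and stomach (108 and 143, 0.41), where the other gave -0.14 in stomach. Integrin ratios in liver and stomach were thus under 2-fold, and their sides were not settled: with median centring Itgam turned to -0.17 in liver and -0.27 in stomach, and the scanner ratio of Itgb2 in liver was -0.04.

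The windows of Clec7a at chr6:129472786-129473035 (minus strand) and Itgax at chr7:128129300-128129549 (plus strand) are shown as those of lung Cy3-high receptors, with GAGGAA in capitals in Clec7a (90 to 85 bases before the start) and TGAGTCA in Itgax (56 to 50).
Clec7a: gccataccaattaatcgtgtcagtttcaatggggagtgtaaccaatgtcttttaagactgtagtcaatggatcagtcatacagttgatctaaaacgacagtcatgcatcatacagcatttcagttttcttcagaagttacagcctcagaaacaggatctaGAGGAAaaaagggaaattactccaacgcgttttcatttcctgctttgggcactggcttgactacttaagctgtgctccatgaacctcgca
Itgax: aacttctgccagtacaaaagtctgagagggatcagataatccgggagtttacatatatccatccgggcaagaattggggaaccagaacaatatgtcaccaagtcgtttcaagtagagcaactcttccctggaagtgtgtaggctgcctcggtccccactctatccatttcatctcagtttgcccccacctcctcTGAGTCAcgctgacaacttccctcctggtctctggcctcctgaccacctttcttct
Of the lung Cy3-high members with a window, 4 of 10 held GAGGAA (Aif1, Clec7a, Csf2ra and Retnla), and of the lung Cy5-high members 3 of 4 did (Il1a, Ltf and Tnf). The letters were thus found upstream of members on both sides.

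The Fc receptors bind antibody on immune complexes, and their adaptors Fcer1g and Tyrobp pass the signal on through tyrosine motifs. Both adaptors were Cy3-high in lung, at similar ratios. Fcer1g had 3060 and 1350 on 1 of its 2 spots in the authors' deposited table (-1.18). Tyrobp had 11000 and 4950 on its single spot in the authors' deposited table (-1.16). The Fcer1g probe listed in lung was the dimmer of its pair in liver (122 and 142) and stomach (87.1 and 104, 0.26). The brighter Fcer1g probe had -0.24 in stomach and was in neither lung list. The receptors Fcgr1, Fcgr2b and Fcgr3 and the Tyrobp partners Trem1 and Trem2 were in neither list. In liver the group ran from Trem2 (152 and 141, -0.10, probes equal to 2 decimals, mean scanner error 0.53) to Fcer1g (323 and 362, 0.17, SD 0.09, mean scanner error 0.37). In stomach it ran from Tyrobp (160 and 156, -0.03, scanner error 0.47) to Fcgr2b (98.1 and 112, 0.19, SD 0.22 over 3 probes). Adaptors and receptors were thus close to even in liver and stomach, and in lung the lists held adaptors and no receptor. Of the design's genes 12.4% were Cy3-high and 6.84% Cy5-high in lung, so most genes were in neither list.

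Among the general macrophage markers, lung entries were Cy3-high and stomach entries lay on both sides. Lyz2, the lysozyme of macrophages and neutrophils (named Lyzs on the array), had the largest Cy3-high ratio of the members in lung, with 26000 in Cy3 and 3030 in Cy5 on 1 of 2 spots in the authors' deposited table (8.59-fold, log2 ratio -3.10). Aif1, the calcium-binding protein Iba1 of macrophages, was listed on both spots of the authors' deposited table, at 6800 against 2080 and 3610 against 885 (mean -1.87). Mpeg1, the pore-forming protein perforin-2, had 29000 and 7900 on 1 of 2 spots in the authors' deposited table (-1.88). Emr1 (F4/80), Cd68 (a lysosomal membrane protein) and Gpnmb were in neither list. Of the widely used macrophage markers, Emr1 and Cd68 were thus absent from the lung lists, as were most of the design's genes, whereas Lyz2, Aif1 and Mpeg1 were in them.

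In stomach, Lyz2 had 1670 in Cy3 and 5950 in Cy5 on its bright probe (log2 ratio 1.84, scanner error 0.21). The other had 58.7 and 83.9 (0.52, scanner error 2.68, not well above background in Cy3), and the mean was 1.18 (SD 0.93). The bright probe was Cy5-high in the stomach list of the authors' deposited table, at 14000 and 52000 (3.71-fold). Cy5 was thus the brighter channel on the bright Lyz2 probe in stomach, and Cy3 on the listed spot in lung. The dim probe's side in stomach was not settled, as its error exceeded its ratio. The spot listed in lung is the probe that was dim in liver and stomach, and the bright probe was in neither lung list. The scanner file places the dim probe at 116790004 to 116790063 and the bright probe at 116785279 to 116785338 of chromosome 10, in a genome build not given in the sources used here.

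Lyz1, the lysozyme of Paneth cells in the intestine, is a near copy of Lyz2, and the record of its probe names Lyz2 too, so that signals of the pair may mix. Lyz1 had 363 in Cy3 and 2090 in Cy5 in stomach (log2 ratio 2.52) and was Cy3-high by 19.1-fold in the lung list of the authors' deposited table. It lay on the side of Lyz2 in both organs. In stomach the intestinal genes Clca1 (3.54) and Vil1 (2.03) were Cy5-high beside it. In the lung lists, 4 of 6 lung epithelium genes were Cy3-high like Lyz2 and Lyz1, beside 12.4% of the design's genes. The part of Lyz1, of intestinal-type cells or of lung epithelium in the Lyz2 values was not tested.

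Gpnmb, a glycoprotein of lipid-laden and tumour-associated macrophages and of pigment cells, was the lowest member in stomach, with 336 in Cy3 and 113 in Cy5 (log2 ratio -1.57, scanner error 0.37) on 1 probe. Its second probe was not well above background in either channel. The measured spot was Cy3-high in the stomach list of the authors' deposited table, at 2590 and 556 (4.67-fold). In liver the same probe was even, with 172 and 176 (0.03, error 0.39). The liver markers ran from Lyz2 (654 and 606, -0.11, SD 0.12) to Aif1 (166 and 181, 0.12, SD 0.16). Lyz2 and Gpnmb, both macrophage markers, thus passed 2-fold on opposite sides of the stomach array.

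The scavenger receptors take up modified lipoproteins, bacteria and haemoglobin. In the lung lists were 0 of 4, beside 12.4% (Cy3-high) and 6.84% (Cy5-high) of the design's genes. Marco, the receptor of alveolar macrophages, had -0.03 in liver (408 and 399, scanner error 0.20) and 0.12 in stomach (250 and 271, error 0.27). Cd163, the haemoglobin receptor, had the second highest ratio of all members in liver (90.1 and 129, 0.52) and the lowest of its group in stomach (83.1 and 65.7, -0.34), but its errors of 0.88 and 2.24 exceeded both values. Mrc1, the mannose receptor of resident macrophages, had 0.20 in liver (405 and 465, error 0.20) and 0.50 in stomach (80.6 and 114, error 1.20). Msr1, the type A scavenger receptor, had 0.14 and 0.12. No ratio of the 4 reached 2 times its error on either array.

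The products of activated macrophages had 1 member in the lung lists. Retnla, a secreted protein of macrophages exposed to interleukin-4, was Cy3-high on both of its lung spots, with 139000 in Cy3 and 33600 in Cy5 on one spot and 95800 and 25100 on the other in the authors' deposited table (mean -1.99). In liver Retnla had 74.6 and 70.3 (-0.09, SD 0.05, mean scanner error 2.9). In stomach it had 79.5 and 68.1 (-0.22, SD 0.14, mean scanner error 2.7), where median centring gave -0.58 and the scanner ratio -0.96. Chi3l3, the chitinase-like protein Ym1 that accompanies Retnla in such macrophages, had 4060 in Cy3 and 2460 in Cy5 in stomach (log2 ratio -0.72, scanner error 0.17), but 0.14 with median centring, so that its side depended on the setting. That spot was Cy3-high in the stomach list of the authors' deposited table (1.66-fold), it was in neither lung list, and in liver it had 987 and 1210 (0.29, error 0.17). Its near copy Chil4, whose probe record names Chi3l3 too, had -0.32 in stomach and 0.14 in liver and was Cy5-high in lung in the authors' deposited table (2.3-fold). Nos2, the inducible nitric oxide synthase, had 0.00 in liver and -0.03 in stomach (116 and 114, error 0.82) and was not listed in lung. Of these products, Retnla was thus the 1 in a lung list and Chi3l3 the 1 in a stomach list.

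The neutrophil genes showed 1 member that passed 2-fold, Ltf, in stomach and lung on opposite sides. Ltf encodes lactoferrin, an iron-binding granule protein that glandular epithelia also secrete. In stomach its probes had 350 against 147 and 1170 against 557 (Cy3 against Cy5), log2 ratios of -1.26 and -1.07 (mean -1.16, SD 0.13), and both spots were Cy3-high in the authors' deposited table. In lung both spots were Cy5-high in the authors' deposited table, from 6710 to 23100 and from 19100 to 53600 (mean 1.64). In liver Ltf had 159 and 182 (0.19, SD 0.25). Both probes of Ltf thus kept the same side within each organ.

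The other 6 neutrophil genes were in neither lung list, as were most of the design's genes. They are the granule genes Ngp, Camp, Mpo and Elane, and the receptors Il8rb, which binds neutrophil chemokines, and Fpr1, which binds formylated bacterial peptides. In stomach they ran from -0.22 (Fpr1, 180 and 154, scanner error 0.44) to 0.26 (Elane, 78.1 and 93.4, error 1.49), and Ngp and Camp were not well above background in Cy3. In liver they ran from -0.07 (Ngp, 97.7 and 92.9, error 1.22) to 0.48 (Camp, 103 and 143, error 0.71). The ratios of these 6 genes were smaller than their errors on both arrays. The window of Ltf, at chr9:111019042-111019291 (plus strand), is shown as the 1 member of 35 with TTGCNNAAT, the letters searched for C/EBP factors of granule genes, held by 2.16% of all windows. Capitals mark GAGGAA on the opposite strand at 157 to 152 and the C/EBP letters on the opposite strand at 76 to 68 bases before the start.
Ltf: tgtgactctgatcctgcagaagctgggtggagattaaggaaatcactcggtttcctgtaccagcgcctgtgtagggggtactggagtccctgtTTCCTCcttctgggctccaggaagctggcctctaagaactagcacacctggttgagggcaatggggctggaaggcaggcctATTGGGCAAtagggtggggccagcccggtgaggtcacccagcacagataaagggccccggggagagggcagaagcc

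**Figure D2:**
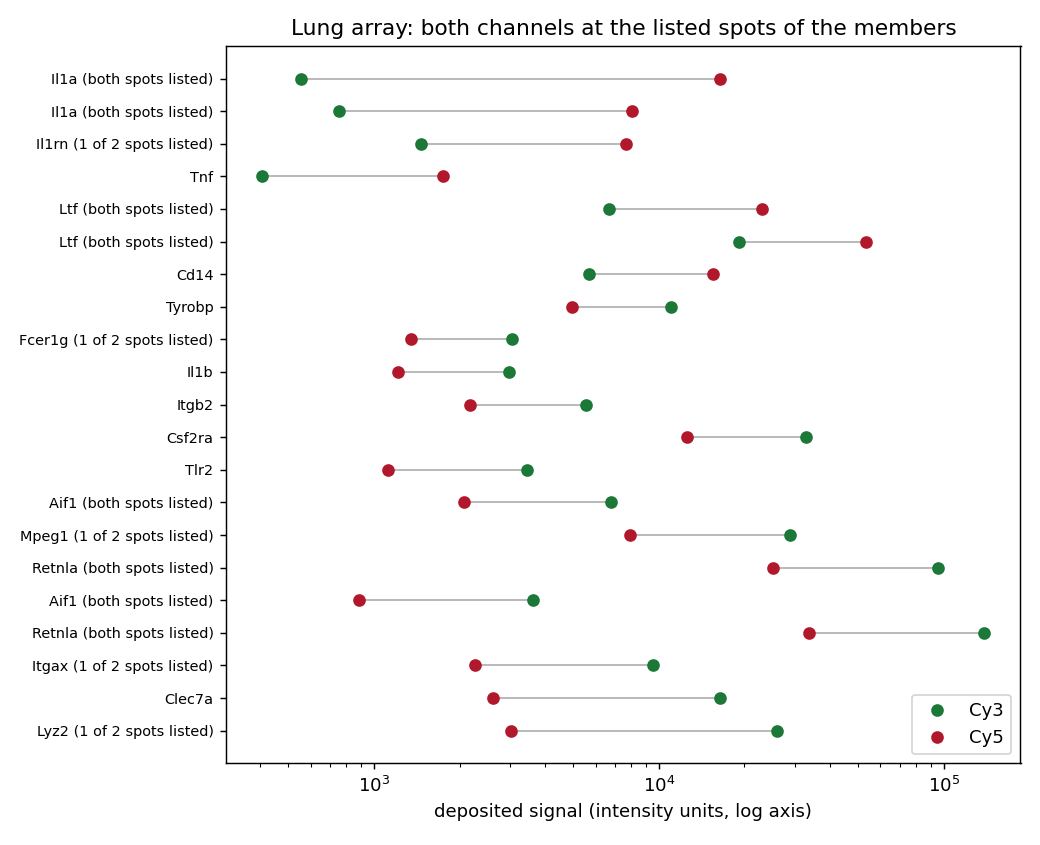
Deposited Cy3 (green) and Cy5 (red) signals on a log axis at the 21 lung spots of the 17 listed members, ordered by ratio with the most Cy5-high at the top. The distance between the points is the ratio; Il1a spans the widest, from 553 to 16400, and 7 spots are brighter in Cy5 against 14 in Cy3.

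Genes of macrophage signalling and effector function outside the 44 were on the Cy3-high side wherever they were listed in lung. Of 36 such genes, 22 (61.1%) were Cy3-high and 0 Cy5-high in the authors' deposited table. Over the design, 12.4% of genes were Cy3-high and 6.84% Cy5-high in lung. They ran from Cd53, a leukocyte membrane protein (-1.03), to Cd52, a leukocyte surface peptide (-2.78), and included Cybb, a subunit of the oxidase that makes superoxide in phagocytes (-2.57), and the kinases Syk and Btk. Many of these genes are expressed in lymphocytes too, whose own markers were Cy3-high in lung as given above. The antigen presentation list was Cy3-high in 6 of 8 genes in the authors' deposited table, H2-Eb1 at -2.92 among them.

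Markers of particular macrophages were mixed. Of 8 alveolar macrophage genes, the authors' deposited table had Car4 (-3.10), Ear1 (-1.82) and Abcg1 (-1.29) Cy3-high. Fabp4 (mean 3.16) and Pparg (1.81) were Cy5-high in the authors' deposited table, and this pair are fat cell genes as well. Over the design, 12.4% of genes were Cy3-high and 6.84% Cy5-high in lung. The part of other cell types in the ratios on either side was not tested. Of 8 Kupffer cell genes, the iron exporter Slc40a1 (1.41) was Cy5-high and Id3 and Nr1h3 Cy3-high in the authors' deposited table. In liver the Kupffer cell genes summed to 5350 in Cy3 and 5220 in Cy5, and 0 of 8 passed 2-fold, beside the 0.152% and 0.0703% of all genes given above. Their log2 ratios ran from -0.19 (Clec4f) to 0.29 (Slc40a1), with 7 of 8 below 0 and a median of -0.13. Of all liver genes 52.9% were above 0 and 77.9% within 0.2 of 0, so these ratios were of the general size.

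Genes that draw or mark neutrophils were Cy5-high in lung in part. Of the list, 26.7% were Cy5-high and 13.3% Cy3-high, beside 6.84% and 12.4% of the design's genes. Of 15 on the design, the authors' deposited table had Cxcl5 (6.21), Cxcl1 (1.83) and Cxcl2 (1.20), which are neutrophil-attracting chemokines, and the collagenase Mmp8 (1.31) Cy5-high, and Itgal and Chil1 Cy3-high. These chemokines lay on the side of Il1a, Tnf and Ltf, while the neutrophil granule and receptor members other than Ltf were in neither list. In liver the list had a median log2 ratio of 0.04, with 9 genes above 0 and 6 below, down to Cxcl5 at -0.25. Lcn2, a granule protein that hepatocytes also secrete, was the 1 of 15 past 2-fold there (1.14), beside 0.152% of all genes Cy5-high. S100a9, a major neutrophil protein, had 0.87 in liver. In stomach S100a9 stood at -1.93, on the side of Ltf, as the 1 of 13 measured genes of the list past 2-fold, beside 1.41% of all genes Cy3-high. The stomach median of the list was -0.04, with 5 genes above 0 and 8 below. Outside the 44, the stomach also had the macrophage protease Ctss at 1.36, on the side of Lyz2 and Tlr2. Ctss was the 1 of 35 measured macrophage signalling genes past 2-fold, beside 0.877% of all genes Cy5-high.

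**Figure D3:**
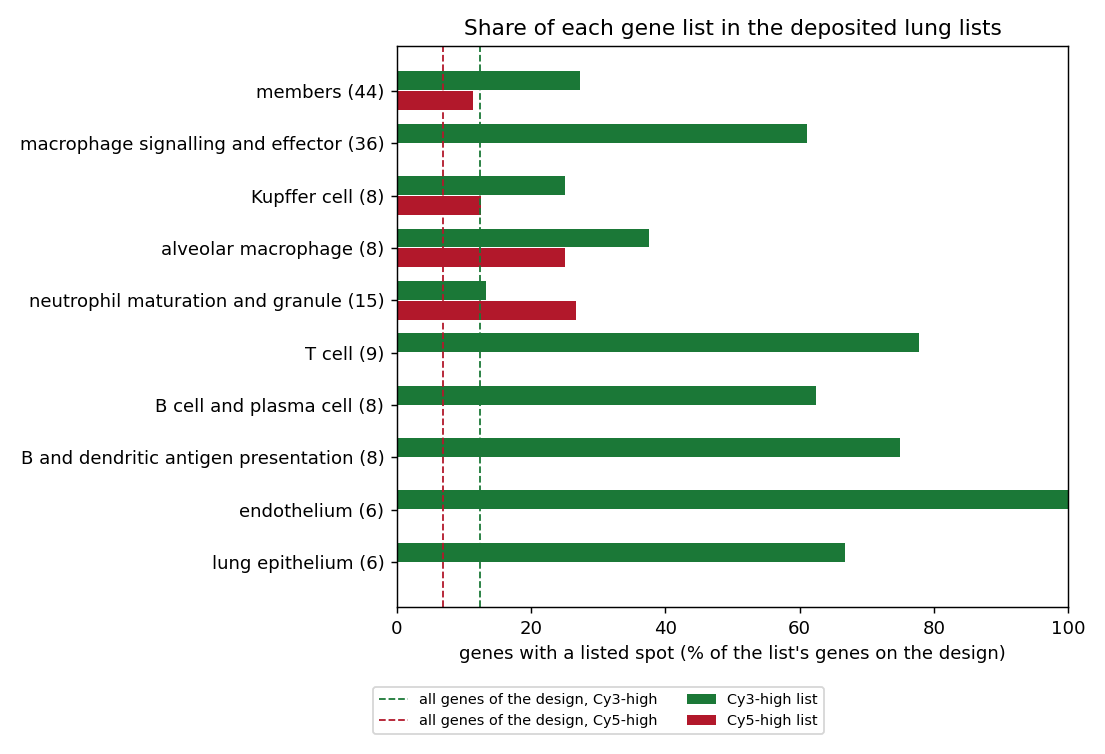
Percent of the genes of each list that had a spot in the Cy3-high (green) or Cy5-high (red) lung list of the authors' deposited table, with the number of genes on the design in brackets; dashed lines give the share of all genes of the design, 12.4% and 6.84%. The 44 members stand at 27.3% and 11.4%, and endothelial genes at 100% Cy3-high.

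The 12 members that were Cy3-high in lung had ratios of -0.11 to 0.39 in liver (median 0.09, 9 above 0) and -0.22 to 1.18 in stomach (median 0.22, 9 above 0). Of all genes, 52.9% were above 0 in liver and 50.2% in stomach. The 27 members in neither lung list also had small medians above 0, of 0.06 in liver (18 members above 0) and 0.09 in stomach (16 above 0). The sign turned with the setting for 36 of the 88 member ratios, so these counts are loose. The 5 members that were Cy5-high in lung had -0.14 to 0.55 in liver (median 0.05) and -1.16 to 0.63 in stomach (median 0.03). Il1rn was Cy5-high in lung and had the highest member ratio in liver and a ratio of 0.63 in stomach. Tlr2 and Ltf changed sides between stomach and lung, as did Lyz2, whose bright stomach probe was not the one listed in lung.

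The 2 Cy3-high calls in stomach depended on the settings. Over 7 alternative settings Lyz2 ranged from 1.18 to 1.84 and Tlr2 from 1.15 to 1.91, whereas Ltf reached -0.71 with median centring and Gpnmb -0.74 with dim probes kept. All 4 kept their side of 0.

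**Figure D4:**
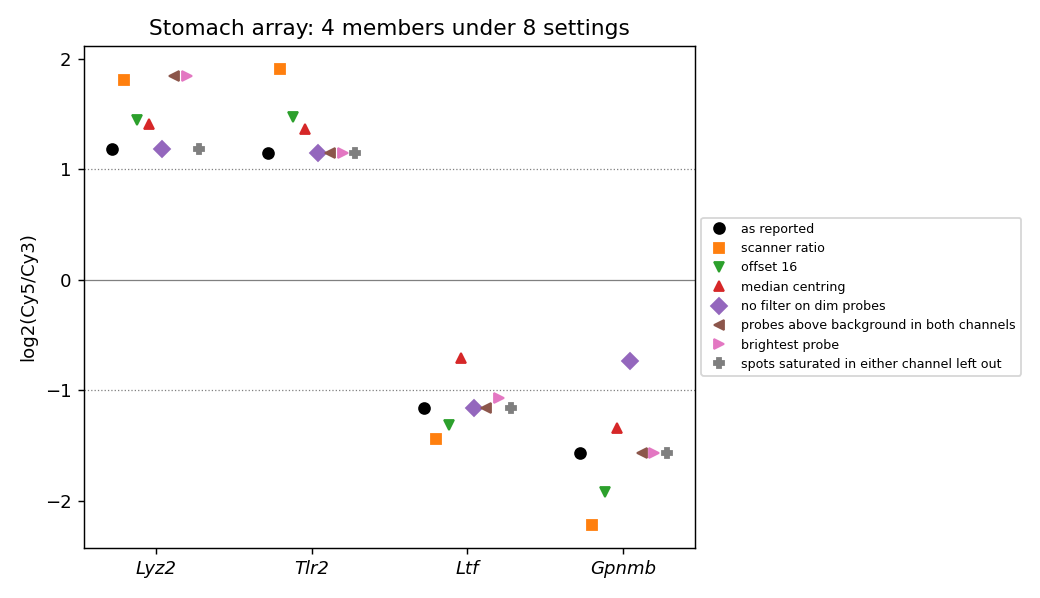
Log2(Cy5/Cy3) of the 4 stomach members past 2-fold, as reported (black circles) and under 7 alternative settings (other symbols); dotted lines mark 2-fold. Lyz2 and Tlr2 stay above the upper line throughout, while Ltf and Gpnmb each cross the lower line under 1 setting.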

How the data were processed

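RNA of 3 tissue pairs was hybridised to 2-colour Agilent mouse arrays, from 500 ng of total RNA per channel, per the labels' protocols, with Agilent Feature Extraction 8.5.1.1 as the scanner software, per the submitters' processing notes. The deposited intensity columns hold each spot's mean and local background in both channels, per the file headers. The deposited log10 ratio is red (Cy5) over green (Cy3) after the scanner software's own background and dye correction, and its deposited p-value covers the measurement error of 1 spot, per the file headers. The authors' deposited table stacks 6 lists of spots with log10 ratios and both signals. Liver and stomach entries equalled the scanner ratios, with scanner p-values up to 0.01 and folds from 1.35. Lung entries start at 2-fold and were joined by spot number: log2 signals of the lung Cy5-high list had a Pearson r of 0.58 with liver brightness over the same 2288 spots, which share the probe. The order of the signal columns varies within the lung Cy3-high list and was settled per spot from its ratio, within 0.01 on the log10 scale. The 2 signals give the listed ratio, so they are normalized values although the column notes call them raw.

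Intensities were background-corrected with normexp (offset 50) and normalized by loess within each array in limma 3.58.1 (R 4.3.3). Control spots were at weight 0 and then left out with outlier-flagged spots. The steps were tested on simulated data in which only bright spots were changed, so that test does not cover dim members. Probes dim in both channels or saturated in both were dropped, and a gene's value is the mean over its probes. Levels are normalized intensities that include the offset, which pulls dim ratios towards 0, and levels of different probes are not compared as amounts of RNA. The error given is the SD between a gene's probes, and single probes carry the log2 error of the scanner's model. For dim genes the SD can be far smaller than the scanner's error, so a small SD there is not high precision. Itgam in liver, for example, had an SD of 0.09 and a mean scanner error of 3.34. Since single arrays allow no test between conditions, genes were counted at 2-fold. Tables were made with Python 3.11.15, pandas 2.3.3 and numpy 2.4.6.

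Of 41174 probes, 22951 were named by accession, 6661 by current symbol and 3084 by synonym from a RefSeq table of GRCm38.p6, and 8478 kept the file's name. Promoter windows are RefSeq's, of the same assembly. They covered 35 members, the most upstream window being used, and those of Csf1r, Emr1, Msr1, Itgb2, Tyrobp, Clec4n, Cd14, Tlr4 and Nos2 were not used here. Levels and ratios were given for members past 2-fold or in a lung list and for the highest and lowest member of each of 10 role groups; other members are given by range or ratio. The members, the 14 further gene lists and the motifs were chosen with earlier results of these data known. In the planned design the alternatives were 7 settings of background, normalization, filters and probe choice, a 1.5-fold threshold, and for lung a 3-fold threshold and all spots of a gene.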

Additional observations from a re-analysis of the deposited data

Results flagged for a closer look

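Lyz2, Tlr2 and Ltf lay on opposite sides in 2 organs, and these differences were not tested. Lyz2 had a mean log2(Cy5/Cy3) of 1.18 over 2 probes in stomach and -3.10 at its listed spot in the lung list of the authors' deposited table. The listed probe alone had 0.52 in stomach, with a scanner error of 2.68, and the bright stomach probe (1.84) was not listed in lung. Tlr2 had 1.15 in stomach and -1.62 in lung in the authors' deposited table, on the same probe. Ltf had -1.16 in stomach and a mean of 1.64 in lung in the authors' deposited table, on the same 2 probes. Each organ had 1 array, and the lung array compared different mice.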

How the results depend on the processing

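The sides of the 4 stomach members past 2-fold held under all 7 settings of the scanner data. The scanner software's own ratio gave 1 Cy5-high member in liver (Cd163, 1.1) and 5 in stomach (Lyz2, Mrc1, Clec4e, Tlr2 and Camp). It gave 3 Cy3-high in stomach (Gpnmb, Ltf and Cd163 at -1.38). Cd163 had scanner errors of 0.88 in liver and 2.24 in stomach, so opposite sides were not settled for it. In stomach Mrc1 (1.23), Clec4e (1.81) and Camp (1.05) had scanner errors of 1.20, 4.92 and 3.75. Clec4e and Camp were not well above background in Cy3 there. The number of Cy3-high members in stomach fell to 1 with median centring, where Ltf had -0.71, and to 1 with no filter on dim probes, where Gpnmb had -0.74 because its dim probe entered the mean. In lung, a 3-fold threshold left 7 Cy3-high members. On the Cy5-high side, Il1a, Il1rn, Tnf and Ltf had mean folds of 17.8, 5.28, 4.32 and 3.11, and Cd14 had 2.73. The share of all genes past 3-fold in lung is not given here, so these are not set against a background. The causes of the other changes were not tested. Over all genes, 2-fold counts (Cy5-high and Cy3-high) were 39 and 18 in liver and 222 and 358 in stomach, against 541 and 420 and 1095 and 1049 with the scanner ratio, 71 and 57 and 359 and 507 with an offset of 16, and 110 and 7 and 1018 and 235 with median centring. Median centring moved 32 of 88 member ratios by more than their error, the scanner ratio 20 and the smaller offset 7. For genes with several probes that error is the SD between probes, which can be very small for dim genes. The sign turned under at least 1 setting for 36 of the 88, of which 35 were at most 0.25 in size and the other was Chi3l3 in stomach (0.14 with median centring). No paired analysis was possible because each organ had 1 array. The planned naming of lung spots from a gene name column was not run, as the table used has no such column. Dim signal limits these values: a median scanner error of 0.77 over the 26 stomach members with 1 probe is larger than most of their ratios.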
